A study of Homo sapiens with 6 samples.

Results

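Aminoacyl-tRNA synthetases are the enzymes that join each amino acid to its tRNA. They were taken from the deposited count table as the coding genes whose symbol is an amino acid letter followed by ARS, ARS1 or ARS2, or *EPRS1*, *FARSA* or *FARSB*. This rule found 37 of 60480 gene identifiers, and all 37 passed the filter on low counts. The 17 genes whose symbol ends in 2 were treated as the mitochondrial enzymes and the other 20 as the cytosolic enzymes.

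Cells keep separate synthetases for the cytosol and for the mitochondrion, most of them encoded by different nuclear genes. *GARS1* and *KARS1* are exceptions, since each gene supplies both compartments, so the split by name is not a perfect split by location. In the cytosol, some synthetases are held together with scaffold proteins in the multi-synthetase complex. When amino acids run short, uncharged tRNA activates the kinase GCN2, the transcription factor ATF4 is made, and ATF4 is known to induce genes of amino acid supply together with many cytosolic synthetases.

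RNA-seq was done on poly(A) RNA of OE-19 cells, an established line of adenocarcinoma of the esophagogastric junction (AEG), grown in RPMI1640 medium with serum. The 3 control libraries were titled shControl and described as Puro, a label that is not explained. The 3 IGF2BP3 KD libraries came from cells in which the RNA-binding protein IGF2BP3 was knocked down (shIGF2BP3). The labels do not say whether the libraries of a group came from separate cultures, so the p-values measure only the spread between these libraries, which may be technical. OE-19 is 1 cell line, and the labels do not say whether the KD libraries carry the same shRNA.

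IGF2BP3 itself had 7416, 7363 and 6532 counts in the control libraries and 777, 792 and 794 counts in the KD libraries. Its log2 fold change (KD over control) was -3.03 (SE 0.06), with an adjusted p of 3.1e-10. Each adjusted p here comes from the quasi-likelihood test of edgeR, corrected by the method of Benjamini and Hochberg over 19778 genes. Total counts ranged from 53424071 to 69989087 per library. The summed expression of 6 epithelial markers was 6011 to 6089 counts scaled to library size (CPM) in the controls and 5945 to 6061 CPM in the KD libraries. Of 6 markers of immune cells, fibroblasts and endothelium, *CD3E* and *COL1A2* were listed at 0 in every library. The sum of these 6 markers was 21.6 to 24.3 CPM in the controls and 29.9 to 34.0 CPM in the KD libraries, most of it *COL1A1*, and its part in the results below was not tested. In bulk RNA, fewer cells of a type and less RNA per cell cannot be told apart.

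Most cytosolic synthetases fell in IGF2BP3 KD cells, while most mitochondrial synthetases did not pass the test. Of 20 cytosolic genes, 12 were lower (adjusted p under 0.05), 0 were higher and 8 were not called, and 0 were higher with DESeq2. Among all 19778 genes tested, 10.6% were called lower, 9.87% higher and 20.4% in either direction. Among the 10809 genes with a mean expression at least that of the lowest synthetase, 18.1% were called lower. That lowest gene is the mitochondrial *PARS2*, and every cytosolic gene lies above it, so this share is not matched to the cytosolic genes in expression. All 20 cytosolic genes had a log2 fold change below 0, from -0.63 for *GARS1* to -0.00 for *FARSA*, with a median of -0.14 against 0.01 over all genes tested. For 16 of the 20, the control and KD libraries did not overlap, which held for 35.8% of all genes tested. Of 17 mitochondrial genes, 3 were lower (*LARS2*, *TARS2* and *AARS2*), 1 was higher (*EARS2*) and 13 were not called. Their median log2 fold change was -0.04, and 6 of the 17 had groups that did not overlap. The mitochondrial genes were less abundant, with a mean log2 CPM of 5.01 in the controls against 7.33 for the cytosolic genes. At a log2 fold change of -0.15, *LARS1* (SE 0.03) was called and the mitochondrial *SARS2* (SE 0.12) was not. The numbers of calls in the classes are therefore not directly comparable.

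**Figure D1:**
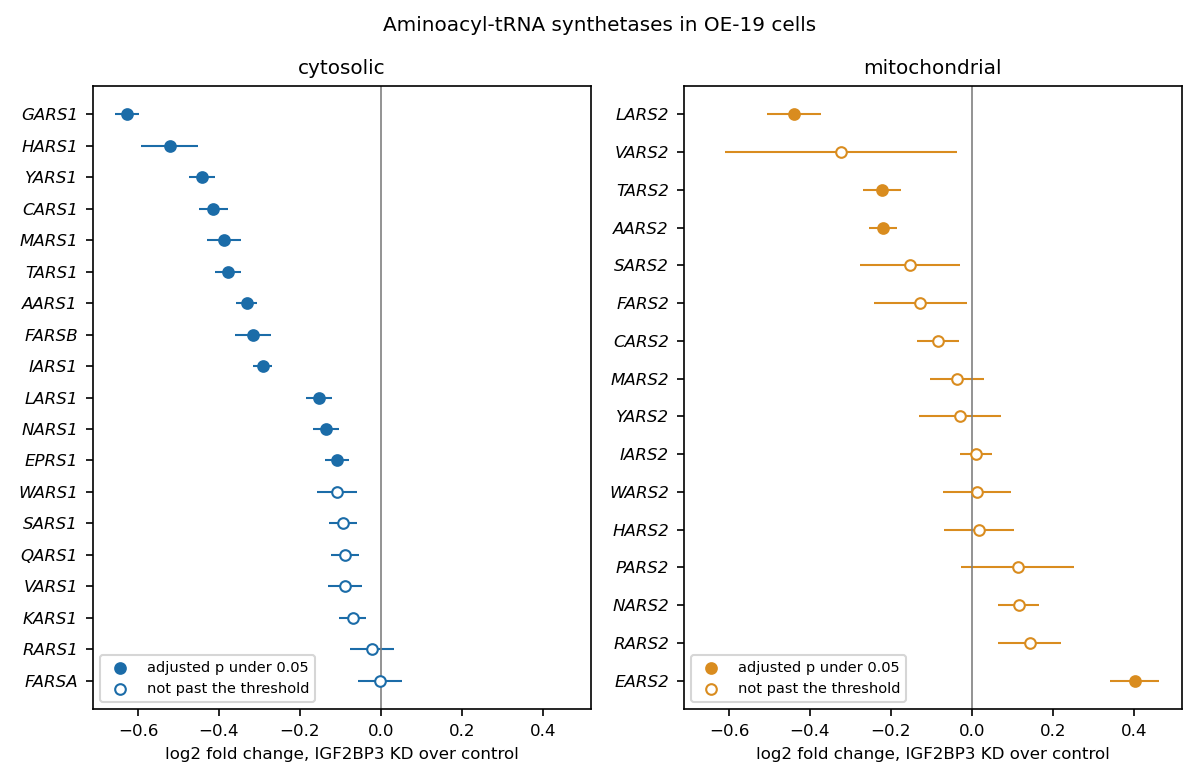
The log2 fold change (KD over control) of the synthetase genes on the x axis, with cytosolic genes on the left and mitochondrial genes on the right, bars of 1 SE and filled points for an adjusted p under 0.05. The cytosolic points lie at or left of 0, and the mitochondrial points spread from -0.44 (*LARS2*) to 0.40 (*EARS2*).

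The summed expression of the 20 cytosolic genes was 4363, 4289 and 4301 CPM in the control libraries and 3613, 3564 and 3641 CPM in the KD libraries. Every KD library was lower than every control, and the KD mean was 83.5% of the control mean (3606 ± 39.0 against 4318 ± 39.5 CPM, SD, n = 3 each). For the 17 mitochondrial genes, the sum was 871, 858 and 868 CPM in the controls and 849, 814 and 822 CPM in the KD libraries. The groups did not overlap here either, but the KD mean was 95.7% of the control mean. Averaged over genes on the log2 scale, the cytosolic enzymes stood 2.32, 2.30 and 2.32 above the mitochondrial enzymes in the controls and 2.11, 2.12 and 2.19 above them in the KD libraries. In KD replicate 3 the mitochondrial values include *VARS2* at 12.2 CPM, against 35.0 and 34.8 CPM in KD replicates 1 and 2. *VARS2* shares exons with another gene, as described below, and no class value was taken without it. These class values are descriptions, because the genes of a class are not replicates.

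The promoters with a match to an ATF4 motif are shown first. They were picked for display with the calls known (7 of the 8 synthetases with a match were lower), so they are no independent evidence. The search used TGATGNAA, the C/EBP-ATF response element that ATF4 binds together with C/EBP proteins, on both strands of the RefSeq promoter windows of build GRCh38.p14 (250 bases before and 50 after the start of the gene). A window was found for 30 of the 37 synthetases. The capitals mark the match, and each line is written 5′ to 3′ on the strand of the gene.
GARS1: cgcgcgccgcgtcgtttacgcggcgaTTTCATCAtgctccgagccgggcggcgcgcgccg
CARS1: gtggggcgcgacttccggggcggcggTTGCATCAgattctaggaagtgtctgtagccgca
MARS1: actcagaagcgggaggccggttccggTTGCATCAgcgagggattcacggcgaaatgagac
TARS1: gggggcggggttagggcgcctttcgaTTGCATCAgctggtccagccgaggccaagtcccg
AARS1: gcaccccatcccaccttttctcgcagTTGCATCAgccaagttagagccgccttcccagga
IARS1: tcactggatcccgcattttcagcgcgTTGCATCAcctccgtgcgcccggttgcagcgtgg
NARS1: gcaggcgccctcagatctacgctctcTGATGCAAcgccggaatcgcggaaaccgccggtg
YARS2: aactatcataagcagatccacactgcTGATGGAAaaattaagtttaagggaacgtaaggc

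*GARS1* was matched at chr7:30594819-30594878, *TARS1* at chr5:33440941-33441000 and *MARS1* at chr12:57488038-57488097, all on the plus strand. The minus-strand windows were *IARS1* at chr9:92293677-92293736, *CARS1* at chr11:3057392-3057451, *AARS1* at chr16:70289660-70289719, *NARS1* at chr18:57621789-57621848 and *YARS2* at chr12:32756061-32756120. In *IARS1*, *CARS1*, *TARS1*, *MARS1* and *AARS1* the match read TTGCATCA on the strand of the gene, the reverse complement of the element, and *NARS1* held the same element as TGATGCAA. The match in *TARS1* began at base 3 of the gene as RefSeq gives it, the match in *CARS1* 2 bases before that start, and the match in *AARS1* 187 bases before it. A match is a description of these letters and not a measured binding site.

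A match was found in 26.7% of the 30 synthetases with a window and in 4.46% of 27305 genes with a window. Of the 8 synthetases with a match, 7 were lower and *YARS2* was not called, with a median log2 fold change of -0.35. Of the 22 with a window and no match, 5 were lower, 1 was higher and 16 were not called, with a median of -0.08. Among the genes tested that had a window, 19.4% of 341 genes with a match and 13.5% of 11623 genes without one were called lower. No test was made of these differences, and the list of synthetases was chosen with results of these data known.

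*GARS1*, which charges glycine in both compartments, had the largest fall of the cytosolic genes. It lies on the plus strand at chr7:30580533-30634033 in hg38. Its expression was 316, 305 and 303 CPM in the control libraries and 199.7, 202 and 196 CPM in the KD libraries. All KD libraries were below all controls, and KD cells kept 64.7% of the control level. The log2 fold change was -0.63 (SE 0.03, adjusted p = 1.59e-07 in edgeR), and the call held in 6 of 6 fits that left out 1 library.

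*HARS1*, the cytosolic histidine enzyme, was expressed at 48.6, 46.6 and 43.2 CPM in the controls and at 29.3, 34.4 and 32.7 CPM in the KD libraries. The groups were apart, with a log2 fold change of -0.52 (SE 0.07, adjusted p = 0.000345 in edgeR). *HARS1* lies head to head with *HARS2* on chromosome 5, and the annotation gives them 108 shared exon bases on opposite strands. *HARS1* also shares 7.70% of its exon bases with *WDR55* on the opposite strand and 1.24% with *DND1* on the same strand. Whether reads were counted by strand is not stated. *HARS2*, the mitochondrial histidine enzyme, was at 21.6, 22.0 and 22.0 CPM in the controls and 20.5, 20.5 and 25.4 CPM in the KD libraries. Its groups overlapped, and its log2 fold change was 0.02 (SE 0.09). The expression of *HARS1* over *HARS2* per transcript length went from 2.67 ± 0.18 in the controls to 1.86 ± 0.25 in the KD libraries (SD, n = 3 each), and the 2 groups of ratios did not overlap.

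*YARS1*, the tyrosine enzyme, whose fragments are also known as secreted signals, was at 223, 214 and 225 CPM in the control libraries. In the KD libraries it was at 165, 159.9 and 163 CPM, below every control. Its log2 fold change was -0.44 (SE 0.03, adjusted p = 3.82e-06 in edgeR). *CARS1*, the cysteine enzyme, was at 189, 201 and 197 CPM in the controls and 149.6, 142 and 149 CPM in the KD libraries. *CARS1* also did not overlap between groups, with a log2 fold change of -0.41 (SE 0.04, adjusted p = 1.44e-05).

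*MARS1* charges methionine, on initiator and elongator tRNA alike, and belongs to the complex. It was measured at 203, 217 and 210.1 CPM in the controls and at 166, 151 and 165 CPM in the KD libraries. Its log2 fold change was -0.39 (SE 0.04, adjusted p = 7.80e-05 in edgeR), with no overlap. *MARS1* shares 5.05% of its exon bases with *DDIT3* and 7.38% with *ARHGAP9* on the opposite strand, and whether the counting used strand is not stated.

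*TARS1*, the threonine enzyme, was at 316, 295 and 298 CPM in the controls and 234, 229 and 236 CPM in the KD libraries. The KD libraries lay close together and below all controls. *TARS1* had a log2 fold change of -0.38 (SE 0.03, adjusted p = 1.48e-05 in edgeR). *AARS1*, the alanine enzyme, went from 347, 353 and 360.1 CPM in the controls to 277, 282 and 282 CPM in the KD libraries. *AARS1* was again apart between groups, with a log2 fold change of -0.33 (SE 0.03, adjusted p = 8.42e-06).

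*IARS1*, the isoleucine enzyme of the complex, was the most abundant synthetase. It was at 907, 876 and 882 CPM in the control libraries and at 739, 714 and 723 CPM in the KD libraries. KD cells kept 81.7% of the control level with no overlap between groups, and the log2 fold change was -0.29 (SE 0.02, adjusted p = 9.25e-06 in edgeR). Per 1000 bases of transcript, *IARS1* stood at 198 CPM in the controls, *GARS1* at 126, *TARS1* at 113, *EPRS1* at 103 and *AARS1* at 103. The lowest member on this scale was *PARS2*, the mitochondrial proline enzyme, at 2.55 CPM per 1000 bases.

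*FARSA* and *FARSB* encode the alpha and beta subunits of the cytosolic phenylalanine enzyme, which are needed together in the active tetramer. *FARSB* was at 85.6, 81.7 and 81.8 CPM in the controls and 69.2, 64.3 and 66.5 CPM in the KD libraries. It fell without overlap, with a log2 fold change of -0.32 (SE 0.04, adjusted p = 0.000466 in edgeR). *FARSA* was at 50.5, 53.3 and 54.2 CPM in the controls and 51.6, 50.6 and 55.5 CPM in the KD libraries. *FARSA* had the smallest log2 fold change of the cytosolic genes, -0.00 (95% interval -0.12 to 0.12), and its groups overlapped. Per transcript length, *FARSB* over *FARSA* was 0.454, 0.411 and 0.404 in the controls and 0.359, 0.340 and 0.321 in the KD libraries. The ratio was therefore lower in every KD library than in every control, at 0.423 ± 0.027 against 0.340 ± 0.019 (SD, n = 3 each). Its level rests on the canonical transcripts, of 6761 bases for *FARSB* (4972 of them 3′ UTR) and 1811 bases for *FARSA*. Which transcripts the cells express was not measured, and in CPM *FARSB* was above *FARSA* in the controls (83.0 against 52.6). The same lengths were used for every library.

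**Figure D2:**
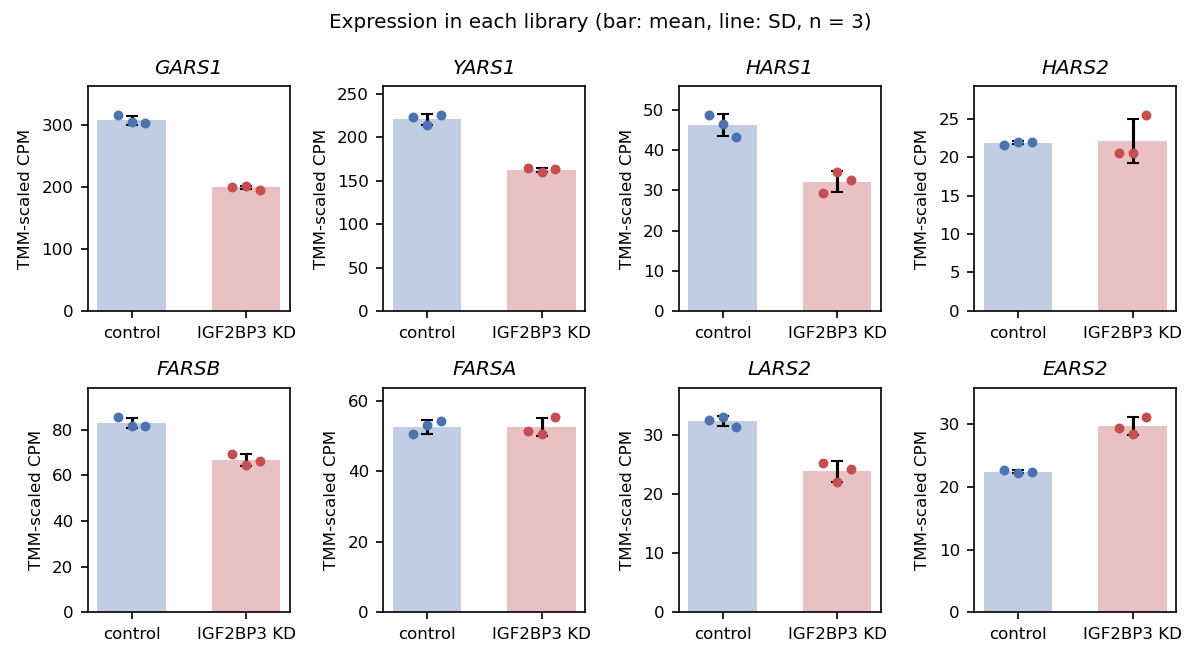
Expression in TMM-scaled CPM of 8 synthetases in the control and IGF2BP3 KD libraries. Points are single libraries, bars the mean and black lines the SD of 3 libraries; *GARS1*, *YARS1*, *HARS1*, *FARSB* and *LARS2* are lower and *EARS2* is higher in every KD library, while *HARS2* and *FARSA* overlap.

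The last 3 lower cytosolic genes had the smallest falls among those called. *LARS1*, the leucine enzyme of the complex, which is also known as a leucine sensor, had a log2 fold change of -0.15 (SE 0.03), *NARS1*, the asparagine enzyme, -0.14 (SE 0.03), and *EPRS1*, the joint glutamate and proline enzyme, -0.11 (SE 0.03). The *EPRS1* call (adjusted p = 0.0254 in edgeR) was lost without KD replicate 1 (0.0779) and without KD replicate 2 (0.109). The *NARS1* call (adjusted p = 0.0103 in edgeR) was lost without KD replicate 2 (0.0562). Among those not called beside *FARSA* were *WARS1*, *SARS1*, *QARS1*, *VARS1*, *KARS1* and *RARS1*, with log2 fold changes from -0.11 to -0.02. *VARS1* would be called without control replicate 1 (log2 fold change -0.13, adjusted p = 0.0271 in edgeR). *WARS1*, the tryptophan enzyme, which interferon gamma is known to induce, was at 63.8 ± 2.05 CPM in the controls and 59.2 ± 2.45 CPM in the KD libraries (SD, n = 3 each, adjusted p = 0.167 in edgeR).

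The genes were then grouped by features that the symbol rule did not use. The lists for these groups were chosen with earlier results of these data known, so the counts below are descriptions. Among the 8 enzymes of the multi-synthetase complex, 4 were lower (*MARS1*, *IARS1*, *LARS1* and *EPRS1*), with a median log2 fold change of -0.10. Among the 12 cytosolic genes outside the complex, 8 were lower, with a median of -0.32. Synthetases come in 2 unrelated folds, class I and class II, and 6 of 10 cytosolic genes were lower in either fold. *EPRS1*, the joint glutamate and proline enzyme, was counted in class I only and is among its 6 lower genes. Of the mitochondrial enzymes, that of glutamate (*EARS2*) is class I and that of proline (*PARS2*) class II, so *EPRS1* could be placed in either. Of the 13 cytosolic genes listed as induced by ATF4, 10 were lower, with a median of -0.29, and *WARS1*, *SARS1* and *VARS1* were not called. Of the 7 others, *HARS1* and *FARSB* were lower, with a median of -0.07. The difference between these groups was not tested.

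Among mitochondrial synthetases, *LARS2* fell the most of the genes called. *LARS2*, the leucine enzyme, was at 32.5, 33.1 and 31.4 CPM in the controls and 25.4, 22.0 and 24.2 CPM in the KD libraries. All KD libraries were lower, with a log2 fold change of -0.44 (SE 0.07, adjusted p = 0.000741 in edgeR). *TARS2*, the threonine enzyme, was at 66.0, 65.6 and 63.7 CPM in the controls and 55.5, 54.0 and 57.8 CPM in the KD libraries. It fell by 0.22 on the log2 scale (SE 0.05, adjusted p = 0.00562 in edgeR) without overlap. *AARS2*, the alanine enzyme, was at 135, 143 and 139 CPM in the controls and 122, 118 and 119 CPM in the KD libraries. *AARS2* fell by 0.22 as well (SE 0.04, adjusted p = 0.00108 in edgeR), and its groups did not overlap.

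*EARS2*, which charges glutamate in mitochondria, was the 1 synthetase called higher. It lies on the minus strand at chr16:23520754-23557731 in hg38. The controls were at 22.6, 22.3 and 22.4 CPM and the KD libraries at 29.4, 28.4 and 31.1 CPM. Every KD library was above every control, and the KD mean was 132% of the control mean. The log2 fold change was 0.40 (SE 0.06, adjusted p = 0.00071 in edgeR), and it was called in 6 of 6 fits without 1 library. *EPRS1*, which charges glutamate in the cytosol, moved the other way, and *EPRS1* over *EARS2* per transcript length was 24.7, 23.6 and 23.5 in the controls and 16.9, 17.2 and 16.4 in the KD libraries. *EARS2* shares 2.90% of its exon bases with *GGA2* on the same strand.

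*IARS2*, the isoleucine enzyme, was the most abundant mitochondrial synthetase by CPM and had the smallest change of its class. It was at 219, 200.1 and 215 CPM in the controls and 221, 207 and 211 CPM in the KD libraries. Its groups overlapped, and its log2 fold change was 0.01 with a 95% interval from -0.08 to 0.10. The other mitochondrial genes not called included *VARS2*, *SARS2*, *FARS2*, *CARS2*, *MARS2*, *YARS2*, *WARS2*, *HARS2*, *PARS2*, *NARS2* and *RARS2*. Leaving out *VARS2*, their log2 fold changes lay between -0.15 and 0.14, and the widest 95% interval was that of *PARS2*, from -0.19 to 0.42. Without 1 library, these estimates ranged from -0.28 to -0.007 for *SARS2* (lowest without control replicate 1, highest without control replicate 2) and from 0.05 to 0.19 for *RARS2* (lowest without control replicate 2, highest without control replicate 3). *FARS2* ranged from -0.23 without control replicate 3 to -0.05 without control replicate 2. *SARS2* shares 48.2% of its exon bases with another coding gene, which was listed at 0 in every library. *NARS2* (0.12) and *RARS2* (0.14) were higher in every KD library than in every control, but were not called.

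*VARS2*, the mitochondrial valine enzyme, needed a closer reading, and it was singled out after its values were seen. It had 2335, 2528 and 1881 counts in the controls and 1888, 2163 and 769 counts in the KD libraries. KD replicate 3 stood far below the other 5 libraries, and the log2 fold change of -0.32 (SE 0.29) was not called. A long non-coding RNA gene on the same strand, *XXbac-BPG118E17.11*, shares 63.0% of the exon bases of *VARS2*. It had 628, 393 and 984 counts in the controls and 388, 482 and 2108 counts in the KD libraries, so it was highest where *VARS2* was lowest. The neighbouring gene *GTF2H4* had 635, 526 and 396 counts in the controls and 331, 565 and 119 in the KD libraries, lowest in KD replicate 3 as well, and it is not in the sum below. The counts of both genes together were 2963, 2921 and 2865 in the controls and 2276, 2645 and 2877 in the KD libraries. Fitted as 1 gene, they had a log2 fold change of -0.04 (SE 0.07, adjusted p = 0.738 in edgeR).

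**Figure D3:**
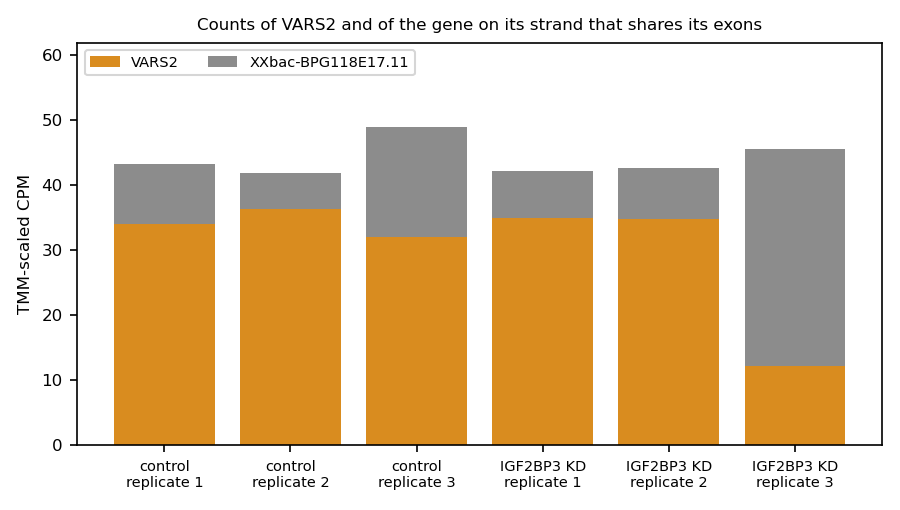
Expression in TMM-scaled CPM of *VARS2* and of *XXbac-BPG118E17.11*, stacked, in each of the 6 libraries. In KD replicate 3 the *VARS2* part drops to 12.2 CPM and the other part rises to 33.4 CPM, while the sum, 45.6 CPM, stays within the 41.9 to 48.9 CPM of the control libraries.

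Both compartments could be compared for 14 amino acids that have 1 cytosolic and 1 mitochondrial gene of the same name. The cytosolic gene had the lower log2 fold change in 10 of the 14. Valine is not among these 10 with *VARS2* counted alone (-0.32, against -0.09 for *VARS1*). Fitted together with its overlapping gene, *VARS2* was at -0.04, above *VARS1*. The log2 ratio of cytosolic over mitochondrial expression was lower in every KD library than in every control for 9 amino acids. Of all single genes tested, 35.8% did not overlap in either direction, and no share was taken over other pairs of genes. For leucine it was higher in every KD library, with log2 fold changes of -0.44 for *LARS2* and -0.15 for *LARS1*. For tyrosine the log2 ratio was 4.31, 4.44 and 4.23 in the controls and 3.93, 3.97 and 3.84 in the KD libraries.

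**Figure D4:**
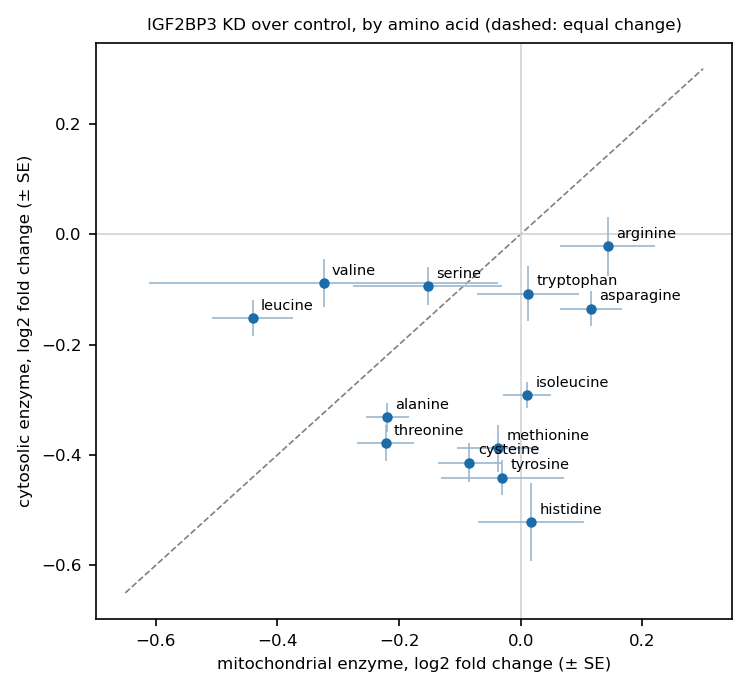
The log2 fold change (KD over control) of the mitochondrial gene on the x axis and of the cytosolic gene on the y axis by amino acid, with bars of 1 SE. The 10 points below the dashed line are amino acids whose cytosolic gene had the lower value; histidine lies farthest below it, with -0.52 for *HARS1* and 0.02 for *HARS2*.

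Sites in the 3′ UTR were compared next, since IGF2BP3 binds mRNA. The words GATTACT and ACACATC came from an earlier search of the same libraries, so their link with the direction of change is no independent evidence. GATTACT was in the 3′ UTR of *GARS1* and *FARSB*, and ACACATC in that of *EARS2*. The sites are shown with the word in capitals, 5′ to 3′, because these genes are among those with the clearest change.
GARS1: aacagcattgtGATTACTcccagggaccgt
FARSB: acattggaacgGATTACTcctgcataacaa
EARS2: cctccatgcacACACATCtctaagtttcat

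These 3 sites begin at base 91, 323 and 524 of the 3′ UTR of *GARS1*, *FARSB* and *EARS2*. Among 13918 coding genes tested, GATTACT was found in 7.7%, of which 35.1% were lower, against 12.6% of the genes without it. ACACATC was found in 9.53%, of which 28.1% were higher, against 11.5% of those without it. Genes with GATTACT had a median 3′ UTR of 3476.5 bases and genes without it of 1130.0 bases, so they also differ in length. The 3′ UTRs of *GARS1*, *FARSB* and *EARS2* have 173, 4972 and 3617 bases. TGGAC, a form of the m6A consensus, was in the 3′ UTR of 16 synthetases, of which 7 were lower and 1 higher, and absent from 21, of which 8 were lower. It was in 61.4% of the coding genes. Binding and methylation of these transcripts were not analysed here.

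Other genes around tRNA charging were read from lists that were chosen with earlier results of these data known. Over all genes tested, 10.6% were called lower and 9.87% higher. Of the 3 scaffold proteins of the complex, *EEF1E1* (log2 fold change -0.25) and *AIMP2* (-0.24) were lower and *AIMP1* was at -0.03. *EEF1E1* was at 16.3 ± 0.42 CPM in the controls and 13.8 ± 0.41 CPM in the KD libraries (SD, n = 3 each), without overlap. *AIMP2* was called in 1 and *EEF1E1* in 0 of the 6 fits without 1 library. Of 5 synthetase-like and proofreading genes, 0 were called by edgeR, 0 passed at an unadjusted p under 0.05 and 0 were called by DESeq2, with log2 fold changes from -0.12 (*TARS3*) to 0.25 (*AARSD1*). Of 4 genes that modify the amino acid on charged mitochondrial tRNA, 3 for the amidotransferase of glutamine tRNA and *MTFMT*, the formyltransferase of methionine tRNA, 1 was lower, the amidotransferase subunit *GATC*. It went from 66.8, 64.0 and 62.9 CPM to 54.4, 57.4 and 52.5 CPM, a log2 fold change of -0.24.

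Charged tRNA is brought to the ribosome by elongation factors. Of 7 cytosolic factors, *EIF5A*, which helps the ribosome past difficult peptide bonds, was lower (-0.20) and *EEF2*, the translocase, higher (0.08). *EEF2* kept its call in 1 of 6 fits without 1 library. Of 4 mitochondrial factors, *GFM2* (-0.33), which recycles ribosomes, and *GFM1* (-0.30), the translocase, were lower, and *GFM2* kept its call in 2 of 6 such fits. *GFM1* was at 193, 172 and 172 CPM in the controls and 144, 150.1 and 143 CPM in the KD libraries, all lower.

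Of 14 genes for tRNA end processing, splicing and export, 6 were lower and 0 higher (0 also with DESeq2 and 0 at an unadjusted p under 0.05), and the median change was -0.13 on the log2 scale. The largest fall was in *TSEN15* (-0.44), a subunit of the endonuclease that removes tRNA introns. *TSEN15* was at 119.8, 116 and 112 CPM in the controls and 86.3, 84.3 and 85.5 CPM in the KD libraries, far from overlap. *POP1*, of RNase P, the export factor *XPOT*, the nuclease *ELAC2* and the ligase *RTCB* were also lower, from -0.30 to -0.18.

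Of 4 genes of the GCN2 response to uncharged tRNA, *ATF4* (-0.19) and *GCN1* (-0.16), the activator of GCN2, were lower. *IMPACT* (0.17), an inhibitor of GCN2, was higher, and *EIF2AK4*, which encodes GCN2, was at -0.07. *ATF4* was at 437, 444 and 429.7 CPM in the controls and 377, 384 and 387 CPM in the KD libraries, with no overlap. *IMPACT* kept its call in 2 of 6 fits without 1 library. *ATF4* is controlled mostly at translation, so its mRNA does not measure the protein.

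Of 20 genes of the amino acid response, 14 were lower and 2 higher, and the median change was -0.37 on the log2 scale. Over all genes tested, 10.6% were lower and 9.87% higher, and this list was also chosen with earlier results known. *ATF4* is counted in this list as well as in the one before. The largest falls were in *CHAC1* (-1.09), which breaks down glutathione, and *VLDLR* (-1.02), a lipoprotein receptor. *CHAC1* was at 64.0, 65.9 and 66.4 CPM in the controls and 29.6, 31.4 and 30.9 CPM in the KD libraries, less than any control. *ASNS*, which makes asparagine, was also lower (-0.32), as were the amino acid transporters *SLC7A5* (-0.64), *SLC3A2* (-0.48) and *SLC7A11* (-0.42). *PSAT1*, of serine synthesis, was higher (0.24). *NUPR1* was higher too (1.64), at under 1 CPM in every library, and its call held in 1 of 6 fits without 1 library.

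Interferon gamma induces *WARS1* in many cells, and 6 of its 8 listed target genes could be tested. Of these 6, 2 were higher and 1 was lower, the higher ones being *TAP1* (0.69) and *PSMB9* (1.01), both of antigen processing. *TAP1* was at 10.8, 13.7 and 13.8 CPM in the controls and 19.8, 21.5 and 20.3 CPM in the KD libraries. *PSMB9* had 31 to 55 counts in the controls and 61 to 92 in the KD libraries, and its call held in 1 of 6 fits without 1 library.

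**Figure D5:**
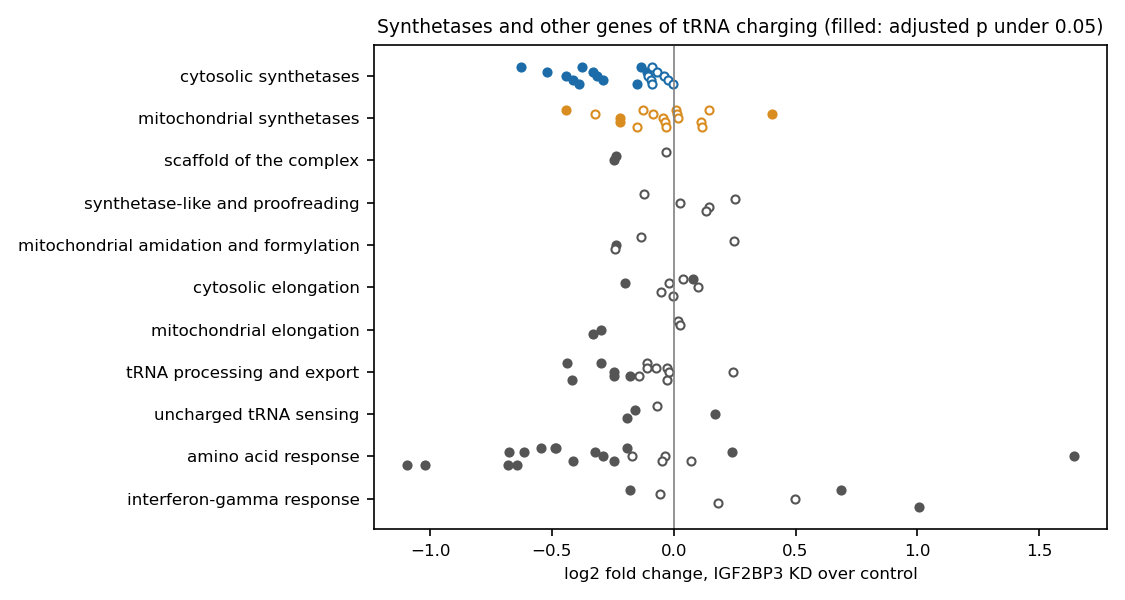
The log2 fold change (KD over control) of single genes on the x axis for the 2 synthetase classes and 9 lists of related genes, filled where the adjusted p was under 0.05. The amino acid response spreads farthest to the left, down to -1.09 (*CHAC1*), and the single point at 1.64 is *NUPR1*.

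Few reads were counted on the listed copies of the synthetase genes. Reads of a copy that were placed on the parent gene would not show in this check. The table holds 14 pseudogene entries named after synthetases, and the largest count of any of them in any library was 11. The smallest count of a synthetase gene was 334 and the largest 62137.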

How the data were processed

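RNA-seq was done on 6 libraries of OE-19 cells, 3 control and 3 IGF2BP3 KD. The authors sequenced paired reads of 150 bases from a directional poly(A) library kit, used HISAT2 for alignment to hg38 and featureCounts to count reads per gene; fastp is named in the submitters' processing notes. The deposited values are raw counts per gene, without normalization. Tool versions, annotation release and strand setting are not given in the sources used here. Counts without molecular identifiers cover counting error only.

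The members and gene lists were chosen with earlier results of these data known. Repeats (132 entries of 44 identifiers) were left out. Counts were fitted for all genes with edgeR 4.0.16 in R 4.3.3 (TMM, filterByExpr with a minimum count of 10 and total of 15, glmQLFit, glmQLFTest, no block), with Benjamini-Hochberg adjustment and a threshold of 0.05. The script was tested on simulated data. CPM are TMM-scaled, with factors from 0.992 to 1.01, and a level per length is divided by the canonical transcript. Positions, exons and 3′ UTRs are those of GENCODE v44 (hg38), which holds 99.97% of the genes tested, and promoters are from RefSeq.

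Values in every library were printed for the called members with the 8 largest absolute changes of either class, the most abundant and the least changed member of either class, and for the lists the called genes with the 2 largest changes. Other genes were named as examples after their values were seen. Some genes count in the totals but are not reported by name here or drawn by name. Within a group, the chi-square per degree of freedom of 2 libraries was at least 9.86, so no library repeats another. Deviations of same-numbered control and KD libraries correlated at -0.01, -0.11 and -0.08, and those of other pairs at -0.07 to 0.15. No pairing by number was seen, but with so few libraries these values cannot exclude it. Alternatives were DESeq2 1.42.0, RLE scaling, other filters, coding genes only, GC and length offsets, a block and each library left out. DESeq2 was the authors' test.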

Additional observations from a re-analysis of the deposited data

How the results depend on the processing

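The 12 lower cytosolic synthetases numbered 10 to 13 when 1 library was left out and 11 to 15 under the other settings, and the 3 lower and 1 higher mitochondrial synthetases kept their number in every fit. Calls over all genes ranged from 1641 to 1970 lower and 1414 to 1741 higher without 1 library, and from 1768 to 2466 lower and 1354 to 2096 higher otherwise. The 10 lower genes on the ATF4 list numbered 8 to 11 without 1 library and 9 to 12 otherwise. Without KD replicate 3 the median log2 fold change was -0.16 for cytosolic and -0.07 for mitochondrial genes. With the replicate number as a block, 12 cytosolic and 3 mitochondrial synthetases were lower, 1 was higher, 2026 genes in all were lower and 1875 higher; no synthetase changed its call. Since no pairing by number was seen or stated, the block is only an alternative. The 14 lower genes of the amino acid response stayed 14 in every fit, but its 2 higher genes became 1 with DESeq2, without the filter, with at least 10 counts in every library, under the replicate block alone or with GC or length offsets, and ranged from 1 to 2 without 1 library. SARS1 and QARS1 were also called lower with DESeq2 (-0.10 each) and with GC offsets, which added VARS1 (-0.14), and EPRS1 was not called without the filter (-0.12). Only genes that were not called changed sign. FARSA was at 0.0012 among coding genes only. Without 1 library, the range was -0.54 to 0.0282 for VARS2, positive without KD replicate 3, -0.11 to 0.0301 for YARS2, -0.0825 to 0.022 for RARS1, -0.045 to 0.024 for FARSA, -0.03 to 0.0344 for IARS2, -0.0473 to 0.0803 for WARS2, -0.0978 to 0.0702 for HARS2 and -0.0064 to 0.19 for PARS2. The causes were not tested. Small changes were hard to see at this depth and spread, and the 95% interval of PARS2, the lowest synthetase, ran from -0.19 to 0.42.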
